A study of Mus musculus with 24 samples.

Results

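The elements of MEP and CFUMK only are stretches of accessible chromatin that were called as ATAC-seq peaks in megakaryocyte erythroid progenitors (MEP) and in colony forming unit megakaryocyte cells (CFUMK), and in no other primary blood cell type examined. They numbered 6349 of the 203413 elements found in 10 primary cell types of the mouse, which is 3.12% of all elements (percent called). They were chosen by the calls themselves: a peak was kept where it overlapped a peak of the other library of its cell type by at least 1 bp, overlapping kept peaks of the 10 types were joined into elements, and those were taken that held a kept peak of MEP and of CFUMK and none of the other 8 types. The pattern of calls is therefore given as a description, and the sequences, the positions and the cell line libraries are the measures that the choice did not use.

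In ATAC-seq, a transposase inserts sequencing adapters into DNA that is not wrapped in nucleosomes, so that peaks of reads mark accessible sites. The series comprised 24 peak lists from 12 cell populations, with 2 libraries each. All primary populations came from adult C57BL6 mice. Those from bone marrow were, besides MEP and CFUMK, the stem cell compartment LSK (Lin-, Sca1+, Kit+), the common myeloid (CMP) and granulocyte monocyte (GMP) progenitors, the erythroid colony forming units (CFUE) and erythroblasts (ERY), and immature megakaryocytes (iMK). Monocytes (MON) and neutrophils (NEU) came from peripheral blood. MEP were sorted as Lin-, Kit+, Sca1-, CD34- and CD16/32- cells, and CFUMK as Lin-, Sca1-, Kit+, CD41+ and CD61+ cells. The MEP gate did not use CD41 or CD61, so the same cell could meet both gates, and how many cells they shared is not given. The remaining 2 populations were immortalized lines that took no part in the choice of elements: G1E, an erythroid progenitor line without GATA1, and G1E-ER4+E2, a G1E clone in which a hybrid of GATA1 and the estrogen receptor is active in the presence of estradiol (E2). The second line is thus a single clone, and both are erythroid models.

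MEP is the bone marrow population from which both red cells and platelets derive, and CFUMK is the committed precursor that gives rise to megakaryocytes, the large cells that shed platelets. Both branches depend on GATA family transcription factors: GATA2 acts in progenitors, GATA1 takes over as cells mature, and both bind the DNA word GATA, often beside an E-box bound by TAL1, whose complex also holds LMO2 and LDB1. RUNX1, FLI1 and ERG act with GATA1 in megakaryocytes, and KLF1 acts with it in erythroid cells. Elements away from promoters that carry these factors commonly work as enhancers.

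Primary lists held 84341 to 230877 peaks and cell line lists 52720 to 70306, each peak at most 150 bp wide. Read totals are not in the lists, but scores below 10 fell on whole multiples of a library-specific step (92.0% or more of them, within 0.0051), and the inverse of that step ran from 40.2% to 100% of the deepest library among primary libraries and from 22.3% to 27.0% among cell lines. This relative depth was 86.4% and 62.8% in the MEP libraries, 63.9% and 48.5% in the CFUMK libraries and 85.2% and 40.2% in the CMP libraries. Promoters of markers fitted the labels of both types in part, and markers of both were open in other types too. A promoter peak, here one at most 500 bp from an annotated start, was present in all 4 libraries for all 7 MEP markers (Kit, Gata1, Gata2, Klf1, Epor, Tal1 and Zfpm1). Both CMP libraries also had all 7, and Tal1 and Zfpm1 had a peak in every primary library. Klf1 had none in LSK, GMP, iMK, MON or NEU. Of the megakaryocyte markers, Itga2b (CD41), Kit, Pf4 and Fli1 had such a peak in all 4 libraries, Itgb3 (CD61) in 1 MEP and both CFUMK libraries and, of these 4, Gp9 in both CFUMK libraries alone. Itga2b had a peak in every primary library, and Itgb3 and Gp9 had one in both libraries of LSK, CMP and GMP. Among markers of other cells, Cd3e was at 0 in all 4 libraries, and of the 2 granulocyte, 2 monocyte and 2 mast cell or basophil markers, 1 of each was open in both MEP libraries and 2 of each in both CFUMK libraries. The B cell marker Pax5 was open in 1 MEP and both CFUMK libraries. Their part in the elements described here was not tested.

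The sequences of 11 members at genes of megakaryocytes, of their transcription factors and of cytokine receptor signalling are shown first, because most of them hold a GATA word, which is more frequent in these elements than in all elements and is also frequent in the patterns most like them. Each line gives the highest-scoring MEP peak of the member with the highest mean score at that gene, 150 bp of the plus strand of GRCm38 (mm10), in 5′ to 3′ direction. Capitals mark the words AGATAA and AGATAG, and also TGATAA and TGATAG, on either strand. Read on the minus strand the first pair is TTATCT and CTATCT, and the second pair is TTATCA and CTATCA.
Itgb3 (chr11:104661735-104661884): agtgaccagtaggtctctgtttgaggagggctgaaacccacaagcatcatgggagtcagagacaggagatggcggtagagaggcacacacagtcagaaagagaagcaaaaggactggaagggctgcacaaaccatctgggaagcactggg
Itga6 (chr2:71809415-71809564): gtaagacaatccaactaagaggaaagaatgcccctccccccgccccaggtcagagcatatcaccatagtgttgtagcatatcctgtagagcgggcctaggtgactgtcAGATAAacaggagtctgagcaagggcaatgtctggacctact
Pf4 (chr5:90758208-90758357): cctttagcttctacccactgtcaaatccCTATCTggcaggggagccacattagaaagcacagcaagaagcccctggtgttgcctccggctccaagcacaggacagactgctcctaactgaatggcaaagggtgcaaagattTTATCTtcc
Sox6 (chr7:115840743-115840892): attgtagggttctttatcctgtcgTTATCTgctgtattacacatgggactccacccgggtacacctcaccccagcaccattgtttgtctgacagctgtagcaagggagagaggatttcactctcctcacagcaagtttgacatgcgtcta
Meis1 (chr11:18904384-18904533): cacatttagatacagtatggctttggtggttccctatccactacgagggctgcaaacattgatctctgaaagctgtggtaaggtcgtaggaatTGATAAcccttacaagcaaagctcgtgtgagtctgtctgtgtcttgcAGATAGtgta
Runx1 (chr16:92793049-92793198): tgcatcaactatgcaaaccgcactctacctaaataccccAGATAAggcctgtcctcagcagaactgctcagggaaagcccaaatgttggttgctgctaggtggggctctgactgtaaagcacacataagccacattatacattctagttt
Erg (chr16:95478711-95478860): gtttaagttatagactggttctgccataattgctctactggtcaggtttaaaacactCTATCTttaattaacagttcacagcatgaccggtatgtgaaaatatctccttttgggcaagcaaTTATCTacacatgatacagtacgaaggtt
Pik3cd (chr4:149635153-149635302): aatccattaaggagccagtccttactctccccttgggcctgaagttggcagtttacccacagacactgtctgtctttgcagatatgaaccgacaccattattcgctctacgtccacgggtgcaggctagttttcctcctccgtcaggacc
Kit (chr5:75579903-75580052): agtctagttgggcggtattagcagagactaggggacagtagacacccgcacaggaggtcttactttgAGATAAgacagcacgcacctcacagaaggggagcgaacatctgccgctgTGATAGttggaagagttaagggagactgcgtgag
Gab2 (chr7:97209184-97209333): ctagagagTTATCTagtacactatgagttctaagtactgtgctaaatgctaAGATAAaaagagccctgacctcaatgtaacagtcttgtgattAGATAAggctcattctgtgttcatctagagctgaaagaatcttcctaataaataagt
Il1rl1 (chr1:40437460-40437609): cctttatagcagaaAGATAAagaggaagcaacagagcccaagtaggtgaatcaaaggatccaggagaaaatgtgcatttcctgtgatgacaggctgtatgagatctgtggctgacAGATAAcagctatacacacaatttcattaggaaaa

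Of these 11 sequences, 9 held at least 1 of the 4 words. Gab2, which encodes a docking protein of cytokine receptors, held 3 copies of AGATAA in its peak. Il1rl1, the receptor of interleukin 33, held 2 copies. The peaks at Itgb3, the beta chain of the platelet fibrinogen receptor, and at Pik3cd, a catalytic subunit of phosphoinositide 3-kinase, held none of the words. The peak shown for Pik3cd lies outside that gene, in an intron of the neighbouring Clstn1. The peak shown for Pf4, a platelet granule chemokine, lies between genes, before the starts of Pf4 and of its neighbour Ppbp, and is nearest to a start of Cxcl5 (1037 bp). The next 3 sequences are the peaks of the members with the highest mean scores, shown because they are the strongest of all members.
Notch2 (chr3:98061755-98061904): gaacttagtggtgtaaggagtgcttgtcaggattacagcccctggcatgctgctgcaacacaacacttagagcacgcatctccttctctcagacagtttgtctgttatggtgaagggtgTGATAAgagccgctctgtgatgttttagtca
Cbx3 (chr6:51479458-51479607): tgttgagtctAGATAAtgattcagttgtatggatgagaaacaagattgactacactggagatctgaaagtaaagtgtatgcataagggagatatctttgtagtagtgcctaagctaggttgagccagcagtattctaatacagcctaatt
Phc2 (chr4:128709481-128709630): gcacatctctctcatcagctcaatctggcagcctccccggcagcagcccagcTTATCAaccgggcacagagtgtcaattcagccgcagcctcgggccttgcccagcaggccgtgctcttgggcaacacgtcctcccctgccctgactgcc

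The member in an intron of Notch2, a receptor of the Notch pathway, had the highest mean score of all, at percentile 95.4 of the 4 libraries. The member in Cbx3, which encodes a heterochromatin protein, followed at 95.2 and the one beside a start of Phc2, a Polycomb group gene, at 95.2. Of these 3 peaks, the one at Cbx3 alone held AGATAA.

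The elements of MEP and CFUMK only made up the largest of the 45 patterns in which exactly 2 types were called, where the median pattern held 124 elements. The next in size were GMP and CFUMK with 4662 elements, GMP and iMK with 3715, CFUE and ERY with 2604 and CMP and CFUMK with 2292. MEP only held 8304 elements and CFUMK only 5079, and the same pair joined by CMP held 3703. Joined by any other single type, the pair held fewer elements: 596 with CFUE, 400 with GMP, 284 with ERY, 239 with iMK, 118 with LSK, 51 with NEU and 31 with MON. The members were 8.23% of the 77175 elements called in MEP, 5.09% of the 124663 called in CFUMK and 9.77% of the 64991 called in both. They had a median width of 231 bp (152 to 1057 bp) and covered 1.63 Mb.

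**Figure D1:**
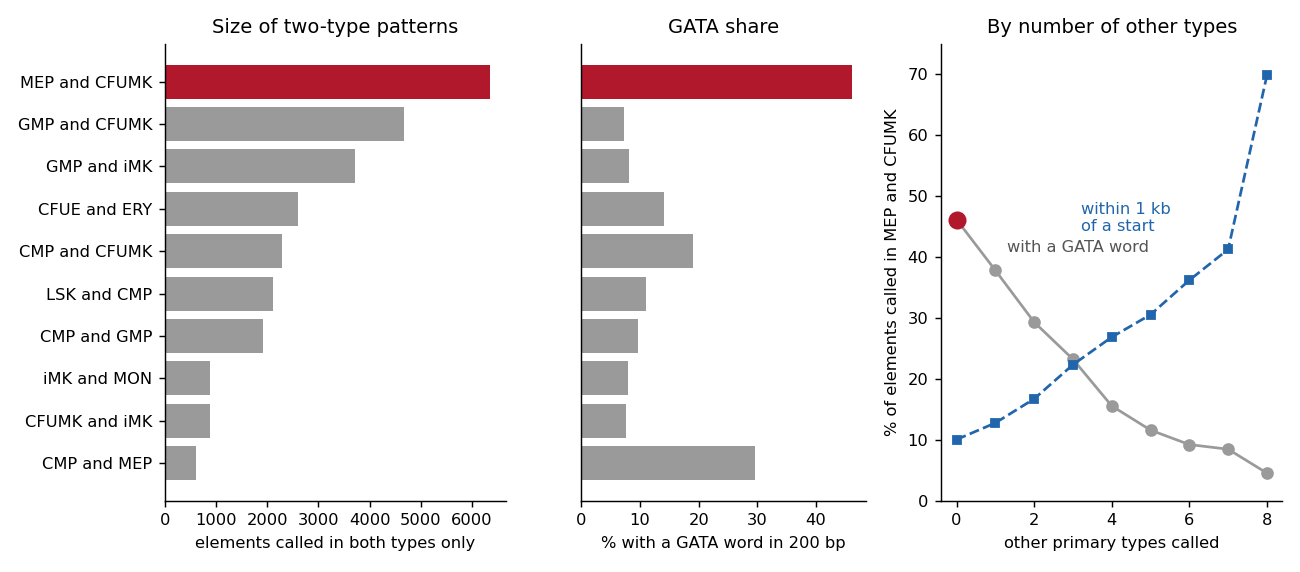
The left panel gives the number of elements of the 10 largest patterns of exactly 2 called types, the middle panel the percent of each pattern with AGATAA in 200 bp, and the right panel, for elements called in both MEP and CFUMK, the percent with AGATAA (circles) and within 1 kb of a transcript start (squares) against the number of other primary types called. MEP and CFUMK (red) is the longest bar in both panels, with 6349 elements and 46.2%, and the circles fall from 46.2% to 4.55% as the squares climb from 10.0% to 69.8%.

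The members held GATA words more often than all elements did. The word AGATAA, searched on both strands in 200 bp about the centre, was present in 2932 members, which is 46.2% (95% Wilson interval 45.0 to 47.4). Intervals given here cover counting error only. The same word was found in 13.4% of all elements and in 12.04% of windows moved by 10 kb to each side of the members, a measure of what the surrounding DNA holds. It was found in 35.9% of the elements of MEP only, in 15.3% of those of CFUMK only and in 7.29% of those of GMP and CFUMK. Among the 24 patterns of 2 types with at least 100 elements, that of MEP and CFUMK had the highest share. Of the 8 patterns in which 1 other type joined the pair, the share was 47.5% with CFUE, 41.1% with CMP and 37.7% with ERY, and it was 13.8% (GMP) to 22.6% (MON) with the other 5. The word is therefore not particular to the members. It was 28.5% in the 906 elements of MEP, CFUE and ERY.

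With all 4 words counted, 77.6% of the members held at least 1, beside 31.6% of all elements and 32.6% of moved windows, and 1424 members held none. Many held several. At least 2 of the 4 words were found in 2379 members (37.5%, beside 7.26% of moved windows), and at least 2 copies of AGATAA in 575 (9.06%, beside 0.882%). Of 1970 six-letter words present in at least 1% of the moved windows, the one with the highest ratio of members to moved windows was CTTATC or GATAAG on the other strand, with 36.0% beside 6.74%, a ratio of 5.34. The first 6 words in that order all contained GATA, and AGATAA itself was the second with a ratio of 3.84. The words with the lowest ratios were GTTCGA and a set of words made of A and T alone, such as AATATA (5.28% of members beside 12.7% of moved windows). AATATA was in 5.03% of all elements, so its low share was not particular to the members. The median share of G and C was 47.5% in members and 44.5% in moved windows. The centre lay in a masked repeat in 13.2% and 28.6%.

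The GATA words lay towards the middle of the members. Of the AGATAA words in the 200 bp windows, 41.5% were within 30 bp of the centre, beside 32.9% in moved windows. Their density in the members was 8.14 per 100 windows in the 20 bp just after the centre and 2.50 in the bin from 100 to 80 bp before it. The share within 30 bp was 40.8% for MEP only, 38.1% for CFUMK only and 37.4% for CMP, MEP and CFUMK. The central position was therefore not particular to the members. The letters CTG, which are the nearer part of an E-box bound by TAL1, stood before AGATAA at a preferred spacing: with 8 bases between, 9.09% of the words had it, with 7 bases 5.13% and with 9 bases 4.67%. The same spacings gave 1.89%, 2.04% and 1.05% in moved windows, and all other gaps from 0 to 20 bases gave 1.86% to 3.80% in the members. The spacing peaked at 8 bases also in the elements of MEP only, of CFUMK only and of CMP, MEP and CFUMK, so it was not particular to the members.

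**Figure D2:**
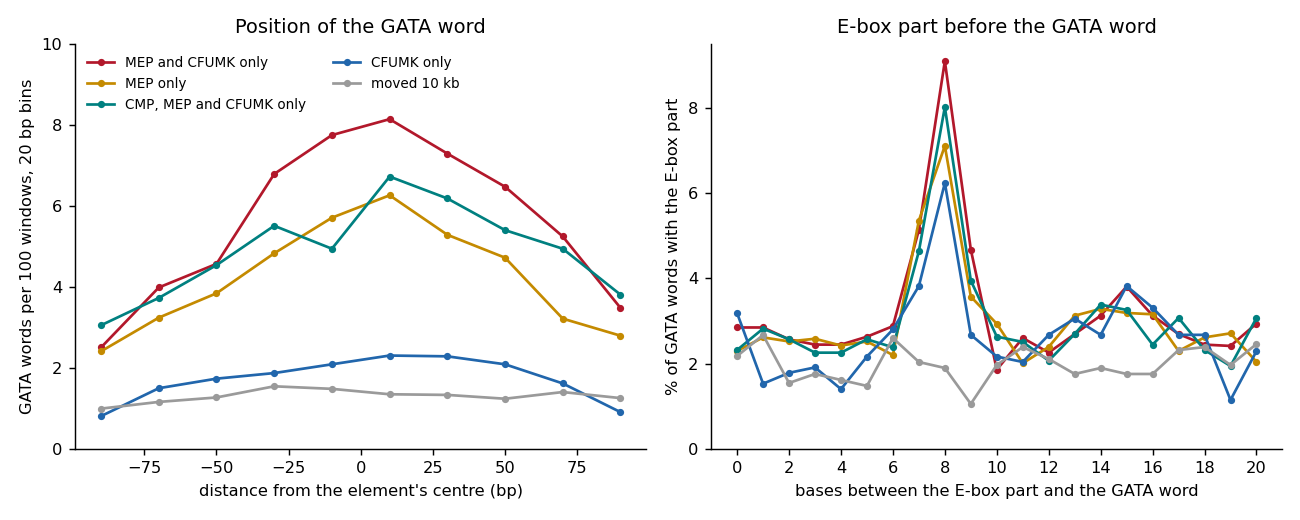
Left, AGATAA words per 100 windows in 20 bp bins against distance from the centre of the element. Right, the percent of AGATAA words preceded by CTG (part of an E-box) against the number of bases between, for the members (red), 3 other classes of elements and windows moved by 10 kb (grey). The members peak at 8.14 words per 100 windows beside the centre and at 9.09% for a gap of 8 bases, where moved windows have 1.89%.

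Words of other blood transcription factors were searched in the same windows on both strands, and the differences went both ways. KLF words (CCACACCC) were in 4.79% of members, 3.32% of all elements and 1.60% of moved windows. The E-boxes CAGCTG and CAGATG were in 15.8% and 21.9% of members, 13.8% and 16.6% of all elements and 8.67% and 15.3% of moved windows. RUNX words (TGTGGTT) were in 8.14% of members, near the 8.50% of all elements, and in 12.9% of elements shared with CMP. ETS words (CAGGAAGT or CCGGAAGT) were in 1.50% of members and 5.74% of all elements, and the word of PU.1 (GAGGAAGT), the ETS factor of myeloid cells, in 0.898% and 6.44%. Against all elements these ratios were as large as that of AGATAA or larger, in the opposite direction, while the moved windows held 1.86% and 1.37%. The NFE2 word GCTGANTCA was in 1.28% and 1.99%, MYB words (AACTGNC) in 13.7% and 11.3%, MEIS words (TGACAG) in 18.3% and 16.4%, and part of the CTCF motif (AGGGGGCGC) in 0.362% and 0.789% of members and all elements. The word of CEBP (TTGCGCAA) was in 0 members, where the 95% Wilson interval reaches 0.0605%, and in 0.127% of all elements. RUNX words were about as common in members with AGATAA (7.98%) as in members without (8.28%), and KLF words were in 3.62% and 5.79%. A match is a run of letters and not a measured site, and absence says only that these letters are not in the window.

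Breadth of accessibility went with composition. Among the 64991 elements called in both MEP and CFUMK, the share with AGATAA was 46.2% in the members, 37.8% where 1 other type was called, 29.3% with 2, 15.6% with 4 and 4.55% in the 15789 elements called in all 10 types. The share within 1 kb of a transcript start ran the other way, from 10.0% to 69.8%. Among elements farther than 1 kb from a start, the GATA shares ran from 47.0% to 7.25%, in the same direction. Median width ran from 231 bp to 425 bp, with the searched window held at 200 bp.

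Members lay mostly away from promoters. Within 1 kb of a transcript start lay 638 members (10.0%, 95% Wilson interval 9.33 to 10.8), beside 23.0% of all elements, 13.5% of those of MEP only, 14.2% of those of CFUMK only and 29.8% of those of MEP, CFUE and ERY. The share was close to that of the members in the elements of CMP, MEP and CFUMK (10.6%) and of GMP and CFUMK (11.2%), so it was not particular to them. Introns held 56.4% (41.2% of all elements), intergenic DNA 29.1% (31.6%), coding exons 1.10% and other exons 3.34%. The median distance to a start was 8718 bp, beside 6422 bp for all elements. Members near starts and away from them both held the GATA word: AGATAA was in 38.4% of promoter members and in 47.0% of the others, beside 7.99% and 15.0% of all elements. The centre lay in a masked repeat in 13.2% of members (12.8% of all elements, 24.1% of those of CFUMK only), and AGATAA was in 36.5% of these and 47.7% of the rest.

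Promoter members are described here by those among the 10 with the highest mean scores. The strongest was 610 bp upstream of a start of Phc2 (mean percentile 95.2). A pair of members 591 and 758 bp downstream of a start of Uckl1, a uridine-cytidine kinase-like gene, had mean percentiles of 91.7 and 87.7 and had reproducible peaks in both cell lines. Tbcd, a tubulin folding cofactor, Nln, the peptidase neurolysin, and Chmp2a, of the ESCRT machinery, had members at 91.6, 89.2 and 88.9. The interleukin 9 receptor gene Il9r had a member at 88.1, Mta2 of the NuRD complex at 87.9 and Zbtb7b, a zinc finger factor, at 87.3. AGATAA was found at 4 of the 10: both Uckl1 members, Il9r and Zbtb7b.

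Of the 10 members with the highest mean scores, 1 was a promoter member (Phc2), and the others lay in introns, exons or between genes. Besides Notch2 and Cbx3, they included members at Syne3, which encodes a nuclear envelope protein (93.6), the clock gene Cry2 (92.9), Zbtb21 (92.5), Fam162a (92.3), the tyrosylprotein sulfotransferase gene Tpst2 (92.1) and 2410004B18Rik (92.0). The members at Syne3, Cry2, Tpst2 and 2410004B18Rik had no peak in any of the 16 libraries of the other primary types, and the other 6 had a peak in 1 to 3 of them. AGATAA was found in 3 of the 10, a number too small to be read against the 46.2% of all members.

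Member peaks ranked higher within the MEP lists than within the CFUMK lists, which does not measure in which type they were stronger. Because the score has no stated unit, each peak's score is given as its percentile within its own library, as a description of peaks that the choice used. Member peaks had a median percentile of 59.7 and 55.9 in the MEP libraries and of 37.3 and 41.1 in the CFUMK libraries. Elements shared with CMP too were higher, at 63.5 and 62.9 in MEP and 50.7 and 53.1 in CFUMK. Elements of MEP only stood at 38.1 and 32.3, and those of CFUMK only at 21.0 and 19.5. Thus members ranked above the elements of a single type in all 4 libraries, and near the middle of the MEP lists. The members spanned mean percentiles from 1.88 to 95.4.

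Both MEP percentiles lay above both CFUMK percentiles in 4583 members (72.2%), beside 30.8% of all elements called in both types. The opposite order held in 180 members (2.84%), beside 41.8%, and in 1586 the order was mixed. The CFUMK lists were longer (197175 and 202625 peaks) than the MEP lists (160409 and 165774), and the part of list length in these ranks was not tested. AGATAA was in 49.6% of the members that ranked higher in MEP and in 16.1% of the 180 that ranked higher in CFUMK, and the 4 words together in 82.1% and 40.0%. Promoter shares were 9.67% and 11.1%. Over the 6349 members, mean percentiles of MEP and CFUMK had a Spearman correlation of 0.819, beside 0.861 between the MEP and 0.872 between the CFUMK libraries. The points share the sequence and the mappability of each element.

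**Figure D3:**
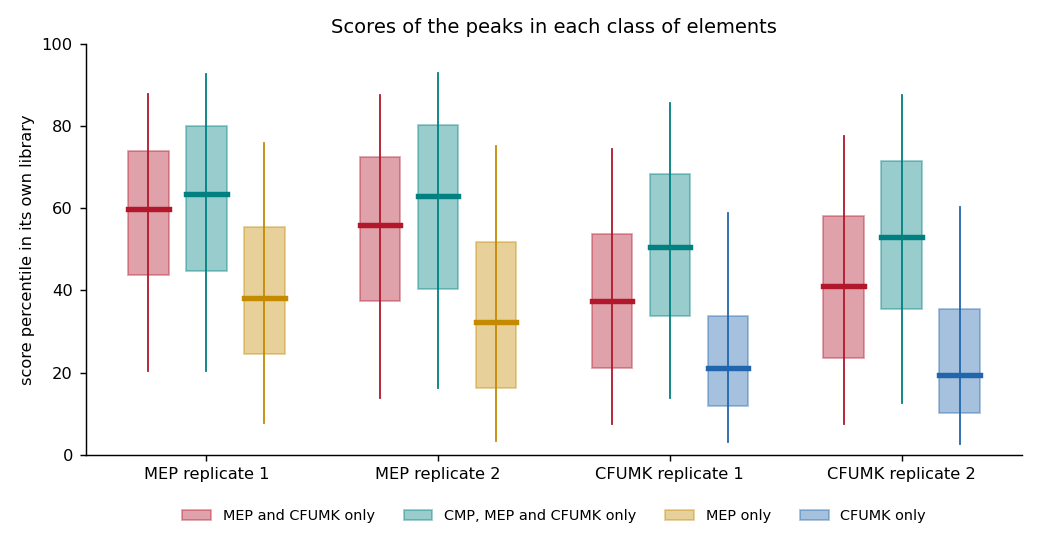
Percentile of the score within its own library for peaks in 4 classes of elements, in the libraries whose type defines the class. Lines inside boxes are medians, boxes span the middle 50% and whiskers the 5th to 95th percentiles of elements, and the members (red) have medians of 59.7 and 55.9 in MEP and of 37.3 and 41.1 in CFUMK.

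Elements just outside the rule ranked lower. Of the elements of MEP only, 2884 (34.7%) had a peak in 1 CFUMK library and so missed the choice by 1 library. Their median percentiles were 42.7 and 35.7 in MEP, and 15.7 (replicate 1) or 23.6 (replicate 2) in the CFUMK library that had the peak. Of the elements of CFUMK only, 1827 (36.0%) had a peak in 1 MEP library, with medians of 22.6 and 23.6 in CFUMK and of 35.6 or 30.6 in that MEP library. These are lower than the medians of the members in each library.

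When the members were divided into 5 classes of equal size by mean percentile, AGATAA was in 40.9%, 47.0%, 45.2%, 47.5% and 50.4%, from the weakest to the strongest. Promoter shares ran from 7.80% to 11.9%. The share with a peak in at least 1 library of another type stayed between 63.1% and 67.5%. The rank of the peak thus went with small differences in the GATA word and in position.

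Absence from the other 8 types meant absence of a reproducible peak, and many members had a peak in a single library of another type. Only 2248 members (35.4%) had no peak in any of the 16 libraries. A peak was present in CMP replicate 1 for 40.3% of members and in CMP replicate 2 for 6.08%, while the shares of all elements were 63.5% and 58.4%. Without CMP replicate 2, when the calls of CMP rest on replicate 1 alone, 3805 members were found in place of 6349. Member peaks in CMP replicate 1 had a median percentile of 29.0, where the elements called in CMP stood at 68.3. The 2 CMP libraries differed in relative depth (85.2% and 40.2%), and the part of depth was not tested.

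In the other types, the share of members with a peak was 11.3% and 2.27% in LSK, 10.1% and 6.44% in CFUE, 7.45% and 1.59% in GMP and 6.27% and 4.85% in ERY. It was 2.91% and 3.86% in iMK, 2.79% and 1.92% in MON and 2.32% and 0.866% in NEU. Of all elements, 65.9% and 58.1% had a peak in the GMP libraries, 54.7% and 38.1% in LSK, 52.3% and 56.3% in iMK, 34.0% and 31.6% in MON, 30.8% and 24.3% in NEU, 26.4% and 23.9% in CFUE and 25.1% and 24.2% in ERY. Members with a peak in an iMK library numbered 428 and held AGATAA in 29.2%. Members with a peak in a CFUE or ERY library numbered 1463 and held it in 41.7%, while the 2248 members with no peak in the 16 libraries held it in 52.8% and lay near a start in 7.70%. Members with and without a peak in CMP replicate 1 differed little, at 44.9% and 47.1%.

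**Figure D4:**
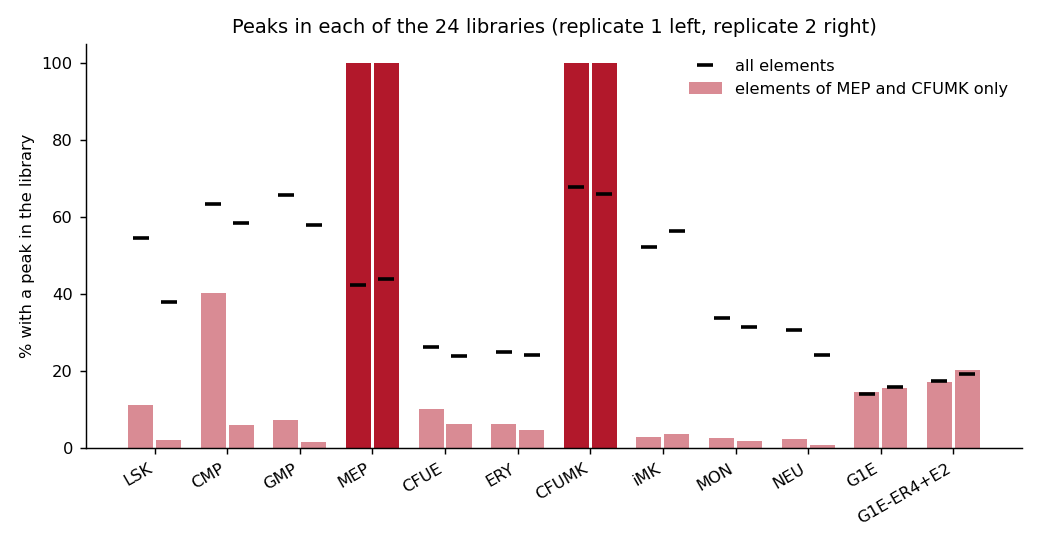
Percent of the members (bars) and of all elements (black marks) with a peak in each of the 24 libraries, replicate 1 on the left and replicate 2 on the right of each pair. The dark bars are the libraries that define presence and reach 100% by construction. CMP replicate 1 (40.3%) and the cell lines (14.7% to 20.3%) are the highest of the rest.

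To measure the calls in libraries that took no part in a choice, elements were chosen on 1 library of each type and looked up in the other. With the lower-numbered libraries, 4151 of 447612 elements were present in MEP and CFUMK only. In the held-out libraries, 87.1% of them had a peak in MEP and 77.7% in CFUMK, beside 22.0% and 32.0% of all elements. The other 8 held-out libraries had peaks at 0.458% (NEU) to 8.29% (CMP) of them, beside 12.02% (NEU) to 28.9% (CMP) of all elements. The mean was 82.4% ± 6.68 (SD, n = 2) in MEP and CFUMK and 3.22% ± 2.63 (SD, n = 8) in the others, a difference of 79.2 percentage points (two-sided p = 0.0444 by exact permutation over libraries, adjusted p = 0.0444, the smallest value that 2 against 8 libraries allow).

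With the higher-numbered libraries, 8138 of 375780 elements were chosen, and 79.5% had a peak in held-out MEP and 72.2% in held-out CFUMK, beside 25.2% and 38.9% of all elements. The other held-out libraries had 1.77% (NEU) to 33.1% (CMP), beside 14.5% (ERY) to 39.2% (GMP) of all elements. In the held-out CMP library the 33.1% stood near the 37.4% of all elements. The difference was 67.3 points (two-sided p = 0.0444 by exact permutation, adjusted p = 0.0444, again the smallest possible). Within the 7 types whose library numbers run together, the differences were 76.3 and 63.6 points, with an exact p of 0.0952, the smallest that 2 against 5 libraries allow. Presence in MEP and CFUMK thus recurred in most of the chosen elements, which measures agreement between the libraries of a type. The elements were chosen for peaks in these 2 types, so both rank highest wherever such libraries agree. The p-values therefore add no support for the pattern. The held-out tests compare libraries of different types, so their p-values hold no measure of the spread between replicates of a type. The SDs given for the lower-numbered choice are likewise spreads between types. The study describes replicates as biological, from other mice or from separate aliquots without saying which. The agreement between the libraries of a type may therefore in part be technical.

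The G1E lines took no part in the choice. Members had a peak in 14.7% and 15.8% of cases in the G1E libraries and in 17.2% and 20.3% in the G1E-ER4+E2 libraries. The shares of all elements were close to these, at 14.1% and 15.8% in G1E and 17.4% and 19.2% in G1E-ER4+E2. The difference between the lines at the members was 3.46 percentage points (15.3% ± 0.757 and 18.7% ± 2.19, SD, n = 2 each, p = 0.333 by exact two-sided permutation, the lowest value that 2 against 2 libraries can give). It was 3.36 points over all elements, and 15.9 points at the elements of MEP, CFUE and ERY, which had 19.1% in G1E and 35.0% in G1E-ER4+E2. With each cell line list held to its 52720 highest-scoring peaks, the difference at the members was -1.11 points, the opposite direction (exact permutation test, p = 0.333).

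Reproducible peaks of G1E were found at 813 members (12.8%, beside 12.7% of all elements) and of G1E-ER4+E2 at 893 (14.1%, beside 15.6%). Both lines had one at 371 members (5.84%, beside 9.99% of all elements), G1E alone at 442 (6.96%, beside 2.66%), G1E-ER4+E2 alone at 522 (8.22%, beside 5.58%) and neither at 5014 (79.0%, beside 81.8%). These classes differed in their words. AGATAA was in 62.9% of the members seen in G1E alone, in 59.0% of those seen in both lines, in 41.0% of those seen in G1E-ER4+E2 alone and in 44.3% of those in neither. KLF words were in 3.39% of the first and 7.85% of the G1E-ER4+E2 class. Cell line peaks were more frequent at stronger members: the mean share ran from 7.17% to 28.0% in G1E and from 7.28% to 36.5% in G1E-ER4+E2 from the weakest to the strongest of the 5 classes.

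Members were spread over many genes. With a window that runs from 20 kb before to 20 kb after each gene, 5140 members fell into windows of protein-coding genes, and 5036 of 21938 genes (23.0%) had at least 1. The members made up 3.24% of the 158403 elements in these windows, which is the level against which the following gene lists are read. The lists were chosen with earlier results of these data known, and the counts carry no test.

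Stem and progenitor genes had the highest share, with 38 members among 683 elements (5.56%), in the windows of 13 of 27 genes. Msi2, an RNA-binding protein of stem cells, had 9 members of 61 elements. Its strongest member had percentiles of 79.1 and 60.5 in MEP and of 69.0 and 75.9 in CFUMK and its weakest 48.7 and 51.7 in MEP and 9.68 and 2.58 in CFUMK. Mecom, which encodes the factor EVI1, had 6 of 69, with mean percentiles of 10.6 to 41.3, and 1 of them lay 282 bp downstream of an annotated start of the gene. Mllt3, a regulator of stem cell maintenance, had 4 of 52 in introns, all with AGATAA (46.2% of all members), at 21.7 to 56.7. Meis1, a homeobox factor, had 3 of 47.

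Genes of megakaryocytes and platelets had 12 members among 480 elements (2.50%), in the windows of 10 of 32 genes. At Itgb3, 3 members lay close together in introns, and the last 2 of them had a reproducible peak in both cell lines. The strongest had percentiles of 62.3 and 77.9 in MEP and of 56.4 and 56.5 in CFUMK. At Itga6, a laminin receptor chain, 2 intronic members had mean percentiles of 52.9 and 19.2. The member before Pf4 and Ppbp had 59.0 and 53.9 in MEP and 41.7 and 49.1 in CFUMK and a reproducible peak in G1E.

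The list of megakaryocyte and erythroid transcription factors had 24 members among 876 elements (2.74%), at 12 of 29 genes. Sox6, a factor of erythroid maturation, had 4 intronic members, the strongest 5292 bp from an annotated start with percentiles of 90.8 and 91.7 in MEP and of 62.8 and 76.2 in CFUMK. Runx1 had 3 intronic members, and the strongest, 33049 bp into the gene, stood at 84.7 and 87.5 in MEP and at 70.5 and 74.9 in CFUMK, with no peak in the 16 other libraries. At Meis1 the strongest had 77.9, 82.2, 57.7 and 66.5 in the same order. Erg, an ETS factor, had 3 members, of which 1 stood 481 bp upstream of an annotated start at 45.8 and 57.9 in MEP but at 28.6 and 0.993 in CFUMK. Within these genes, MEP percentiles were higher than those of CFUMK at each strongest member, an order found in 72.2% of all members.

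Cytokine receptor signalling had 13 members among 541 elements (2.40%), at 10 of 27 genes. Kit, the receptor of stem cell factor by which both populations were gated, had 2 intronic members. The first lay 4985 bp into the gene, with percentiles of 79.1 and 85.0 in MEP and of 66.6 and 68.5 in CFUMK, reproducible peaks in both lines and peaks in 3 of the 16 other libraries. The second, at 60716 bp, stood at 44.8, 40.4, 22.6 and 25.5. Gab2 had 2 intronic members that also had reproducible peaks in G1E and not in G1E-ER4+E2. Pik3cd had 1 member 690 bp upstream of a start, at a mean of 61.2, and another that lies inside the neighbouring Clstn1, at 80.9. Il1rl1 had 1 member, 908 bp downstream of an annotated start, at 38.4.

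Platelet signalling and cytoskeleton had 27 members among 743 elements (3.63%), at 13 of 27 genes. Stim1, the calcium sensor of the endoplasmic reticulum, had 6 intronic members at mean percentiles of 25.7 to 71.6. Of these, 5 held AGATAA, beside 46.2% of all members. Pstpip2, an F-BAR adaptor, had 5, of which 1 lies in the neighbouring Atp5a1 at 83.5. Myh10, a nonmuscle myosin, had 3, of which the strongest lies in a coding exon of the neighbouring Ndel1, at 63.6. Rhoa, a GTPase of the cytoskeleton, had 2 that lie beside or in Usp4.

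Erythroid genes had 14 members among 487 elements (2.87%), at 8 of 32 genes. Car1, a carbonic anhydrase of red cells, had 3 of the 11 elements in its window, at 16.2 to 61.7. Slc25a21, a mitochondrial carrier, also had 3. The membrane skeleton genes Ank1 and Sptb had 2 each, and 1 of those of Sptb lies in a coding exon of the neighbouring Plekhg3. The strongest at Ank1 stood at 87.4 and 86.9 in MEP and at 75.5 and 75.9 in CFUMK. It had no peak in the 16 other libraries, CFUE and ERY included. The shares of the erythroid and of the megakaryocyte and platelet list (2.87% and 2.50%) lay near the 3.24% of all genes, as did the 3.63% of platelet signalling and cytoskeleton.

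The list of mast cells, basophils and eosinophils had 10 members among 269 elements (3.72%), at 7 of 22 genes. Hdc, which makes histamine, had 2 members beside an annotated start, with 2 and 1 copies of AGATAA and mean percentiles of 43.7 and 46.1. Slc18a2, a vesicular amine transporter, had 2, Kit the 2 given above, and Il13 had 1 that lies in Rad50. These cells also use GATA factors, and peaks at the promoters of the mast cell and basophil markers Cpa3 and Mcpt8 were present in both CFUMK libraries, and of Cpa3 alone in both MEP libraries. Their part in these members was not tested.

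Lists of other cells had few members among few elements, so their shares rest on small counts. Granulocyte genes had 4 of 259 elements (1.54%; 1 each at Prtn3, Mmp8, Ms4a3 and Mmp9), monocyte genes 2 of 292 (0.685%; Spi1 and Cx3cr1), B cell genes 2 of 165 (1.21%; 1 at Pou2af1 among them) and T and NK cell genes 3 of 139 (2.16%; 1 shared by Cd3d, Cd3g and Cd3e, and 1 at Gata3 among them). Housekeeping genes had 3 of 170 (1.76%; Tubb5 and Hprt among them) and genes of other tissues 2 of 140 (1.43%; Myh6 and Cdh1). Many of these members belong to other genes by position: that of Prtn3 lies in Plppr3 and that of Mmp8 47 bp from a start of Mmp27. The member of Ms4a3 lies in Ms4a2, a gene of the mast cell list, and so counts in both lists. That of Mmp9 lies in Slc12a5, that of Tubb5 in Mdc1 and that of Myh6 in Efs. The members of Cx3cr1 and Gata3 are nearest to starts of Ccr8 and Taf3. The member in Spi1, which encodes PU.1, was intronic, held AGATAA and had 59.0 and 62.1 in MEP and 53.7 and 66.5 in CFUMK.

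**Figure D5:**
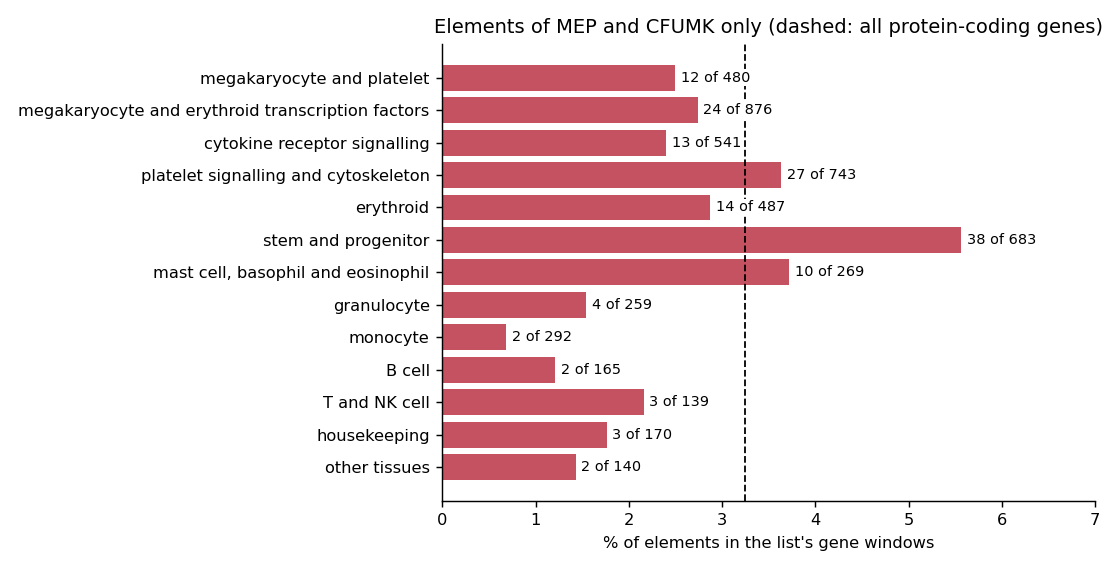
Members as a percent of all elements in the windows (gene and 20 kb of flank) of 13 gene lists, with the counts beside the bars and the share over all protein-coding genes (3.24%) as a dashed line. The stem and progenitor list is the longest bar (38 of 683, 5.56%) and the monocyte list the shortest (2 of 292, 0.685%).

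The genes with the most members were long. Gm20388 had 21 in an annotated read-through of 4435 kb that overlaps 73 other coding genes, and Fgfr2 had 10 in an annotation of 2961 kb that overlaps 30, so these counts do not belong to 1 gene. Gnaq, the G protein subunit that couples platelet receptors to phospholipase C, had 9 of 63 elements, of which 7 lay in introns and 3 held AGATAA, at mean percentiles of 11.7 to 51.6. Foxp1, a forkhead factor, had 9 of 154, all with at least 1 of the 4 GATA words, beside 77.6% of all members. All lay in introns, but 1 of them in an intron of Gm20696, 2873 bp upstream of a start of Foxp1. Msi2 was among them too, with 9.

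The following genes had 8 each: Tgfbr3 (of 57 elements), a coreceptor of transforming growth factor beta, Med13l (of 60), of the Mediator complex, Agap1 (of 67), a GTPase-activating protein, and Rabgap1l (of 103). At Med13l all 8 were intronic, 6 had no peak in the 16 other libraries and 3 had a reproducible peak in G1E-ER4+E2. Over all members these shares were 56.4%, 35.4% and 14.1%. At Agap1 all 8 ranked higher in MEP than in CFUMK, with mean percentiles of 46.0 to 85.6. This order held in 72.2% of all members.

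A further 10 genes had 7 each: Fbxw11, E130308A19Rik, Pou2f1, Cdyl, Eif4g3, Tcf12, Cog5, Arid1b, Kif26b and Zfp407. By length, Fbxw11, of a ubiquitin ligase, was the densest of the 20 genes with 4.86 members per 100 kb. Members were the largest part of all elements at Cog5, a Golgi gene, where 7 of 28 (25.0%) were members. Of these, 5 held AGATAA, beside 46.2% of all members. Tcf12 encodes HEB, an E protein that pairs with TAL1, and its 7 members had low mean percentiles, from 14.5 to 34.7. Arid1b, of a chromatin remodelling complex, had higher ones, from 46.8 to 85.6. At least 5 members were found at 83 genes.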

How the data were processed

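ATAC-seq peak lists of 24 libraries were analysed. The submitters' notes and the study's methods state that reads were trimmed, aligned to mm10 with Bowtie 0.12.8 and handled with SAMtools (1.6 in the notes, an older version in the methods). HOMER called peaks separately for each library. The authors deposited each peak with a score of unstated unit and a second score, and the first was used to rank peaks within a list. Peaks are at most 150 bp wide, and no list of artefact regions was applied.

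Elements were built as given at the opening. Groups follow the labels. The members, the gene lists and the tests were chosen with earlier results of these data known. An element counted as a promoter element when its centre was at most 1 kb from a transcript start (141730 starts, GENCODE vM21), and sequence is that of GRCm38.p6 from RefSeq. Words were searched on both strands in 200 bp about the centre, and overlapping matches were counted. Tests are exact permutations over libraries, two-sided, at a threshold of 0.05 with Benjamini-Hochberg adjustment over the 2 held-out tests. No test was run over elements, which are not replicates. Depth is known only as the relative depth read from score steps, which assumes that the authors scaled every list to the same total.

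Named genes are the 20 coding genes with the most members, up to 4 genes of each of 13 lists (287 of 288 genes matched) with the most members, and the nearest genes of the 10 members and the 10 promoter members with the highest mean percentile; some genes that this rule or the marker lists take in are not reported here. Sequences of 7 of the 10 strongest members are left out for length. Alternatives changed the overlap, the score threshold, the definition of absence and presence, the merging, the word, the window, the promoter distance, the split and the libraries. Software was scipy 1.17.1, matplotlib 3.10.9, pandas 2.3.3 and numpy 2.4.6 under Python 3.11.15, and the element building and the tests were tested on simulated data.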

Additional observations from a re-analysis of the deposited data

How the results depend on the processing

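With only the 84341 highest-scoring peaks of each primary library, 2521 members were found, 43.9% with AGATAA, 12.9% near a start and a median percentile of 75.2. Requiring no peak in any of the 16 other libraries left 2248, with 52.8% and 7.70%, and leaving out members with a peak in CMP replicate 1 (added after seeing the data) left 3788. A peak in either replicate gave 44.6% with AGATAA and a median percentile of 34.8. Searching the whole element gave 50.7%, and the 4 words 77.6%. Merging elements within 100 bp gave 9.03% near a start, and distances of 500 bp and 2 kb gave 5.12% and 17.8%. Leaving out each primary library in turn gave 3805 (without CMP replicate 2) to 8158 members (without CFUMK replicate 1), 42.5% to 48.2% with AGATAA, 9.39% to 10.9% near a start and median percentiles of 40.9 to 48.9. The share with a peak in a library of another type, 64.6%, was 66.2% with the overlap of 50% and 54.5% with highest-scoring peaks only, and 36.1% (without CMP replicate 2) to 65.1% with 1 library left out, and 41.7% without CMP replicate 1. The held-out differences were 76.3 and 63.6 points in the 7 types numbered together (exact permutation p = 0.0952). Leaving out 1 held-out library gave 74.5 to 83.9 and 63.7 to 70.9 points (exact permutation p = 0.0556 or 0.222, the smallest these sizes allow). The cell line difference was -1.11 points with highest-scoring peaks only and 1.91 to 5.01 without each cell line library, and none of its settings could pass the threshold. The cause of these shifts was not tested, except that fewer libraries or peaks enter by construction. In every other alternative run, leaving libraries out aside, shares stayed within the Wilson interval and median percentiles within the spread between replicates. The count of members stayed within 1.5 times. The differences kept their direction and their side of the threshold, but not always their size. The held-out ones were 86.9 and 73.4 points with highest-scoring peaks only. Relative to all elements (added after seeing the data), they were 71.9 and 61.3 points, and the cell line difference was 0.0988 points. No paired analysis was possible because the labels give the libraries of different types no shared replicate numbers, and each held-out test holds 1 library of a type. Depth limits what absence means, since the libraries differ in relative depth and the number of sites missed is not known.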

Other observations

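Members were mostly solitary, as were the elements of the patterns most like them. Another of the same set lay within 10 kb of 20.3% of members and 22.0% of the elements of MEP only. The share was 13.2% for CMP, MEP and CFUMK, 12.4% for GMP and CFUMK and 10.3% for CFUMK only. These sets differ in size, and the part of size was not tested. With 10 kb as the largest gap, 5061 members (79.7%) stood alone, and 74 groups of 3 or more held 230 members. The largest group was 5 members in 11.0 kb at Cdyl on chromosome 13, with no other element between them. Groups of 4 lay at Ehf, an epithelial ETS factor, in 16.1 kb, at Tbl1xr1, of a corepressor complex, in 9.06 kb, at the Mediator kinase Cdk19 in 5.81 kb, at Shank3 in 12.6 kb and at Plekhs1 and Dclre1a in 12.3 kb, and 1 more on chromosome 13 had no coding gene within 20 kb. In these groups of 4, all elements were members or all but 1 or 2. Ehf, Tbl1xr1, Cdk19, Shank3, Plekhs1 and Dclre1a are in no list or count of the report and were named after their values were seen.

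Across chromosomes, members were 2.69% (chromosome 15) to 3.84% (chromosome X) of elements. Chromosome 1 had 3.61% and chromosome 13 had 3.55%. Chromosome Y had 0 members of 52 elements. Another element lay within 1 kb of 31.9% of members, beside 71.5% of the elements of MEP, CFUE and ERY and 41.4% of those of MEP only. The median distance from a member to the next member was 51226 bp.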
